A study of Mus musculus with 3 samples.

Results

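The 10 genes described here belong to fibroblast growth factor (FGF) signalling. They code for the secreted ligands Fgf3, Fgf4, Fgf5, Fgf8 and Fgf15, the receptor Fgfr1, and the inhibitors Spry1, Spry2, Spry4 and Dusp6, which act inside the cell. They were chosen by name, and every probe set annotated to one of them was read. This gave 22 of the 34945 probe sets with 1 gene symbol, and 10 of 18193 genes. A probe set is a group of short oligonucleotide probes against the same transcript. RNA came from 3 germ layers, endoderm, mesoderm and epiblast, of E7.5 (embryonic day 7.5) embryos of the ICR mouse strain, for which no genetic change or treatment is labelled. The embryonic region was cut from each embryo, treated with trypsin and pancreatin, and separated into layers by hand. Neuroectoderm and primitive streak were both part of the epiblast sample. A single Affymetrix mouse expression array was used per layer, with 100 ng of RNA, and how many embryos went into it is not stated. With 1 array per layer no difference has a replicate check, and no p-value is given.

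FGF ligands bind receptor tyrosine kinases together with heparan sulfate, and the signal passes through Ras, Raf, Mek and Erk to ETS transcription factors. Among the genes that this pathway induces are its own inhibitors, the Sprouty proteins, which restrain the steps to Erk, and Dusp6, a phosphatase that inactivates Erk. At gastrulation Fgf8 and Fgf4 are made in the primitive streak and Fgfr1 in the epiblast and its derivatives, and loss of Fgf8 or Fgfr1 is known to disturb the movement of cells away from the streak.

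The deposited intensities had like medians, of 79.9 (endoderm), 79.9 (mesoderm) and 82.2 (epiblast). The upper quartiles were less alike, at 319, 276 and 269 in the same order, so the arrays were not level among brighter values. The median of all values, 80.6, served as a floor, and a gene was analysed where its highest value was above it, as was so for 12785 genes. A gene was called higher or lower where it differed by 2-fold, or 1 on the log2 scale. Where a gene had several probe sets, the one with the highest mean log2 stood for it. The log2 difference varied between probe sets of a gene with a pooled SD of 0.40 (endoderm and epiblast), 0.27 (mesoderm and epiblast) and 0.39 (endoderm and mesoderm) over 5536 genes. This is a spread between probes and not between embryos. The layer markers Sox17, Foxa2, Foxf1, Kdr and Sox2 were each highest on the array of their own layer, and Pax6, at 181 in endoderm, 92.4 in mesoderm and 121 in epiblast, was not. The summed intensity of 7 visceral endoderm markers came to 44731 on the endoderm array, 872 on the mesoderm array and 794 on the epiblast array, with 7, 3 and 3 of them above the floor. Their part in the results below was not tested, and neither was that of the 5 parietal endoderm markers, which summed to 8990, 4329 and 2611 in the same order, with 4, 4 and 3 above the floor. In such bulk samples fewer cells of a type and less RNA per cell cannot be told apart.

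**Figure D1:**
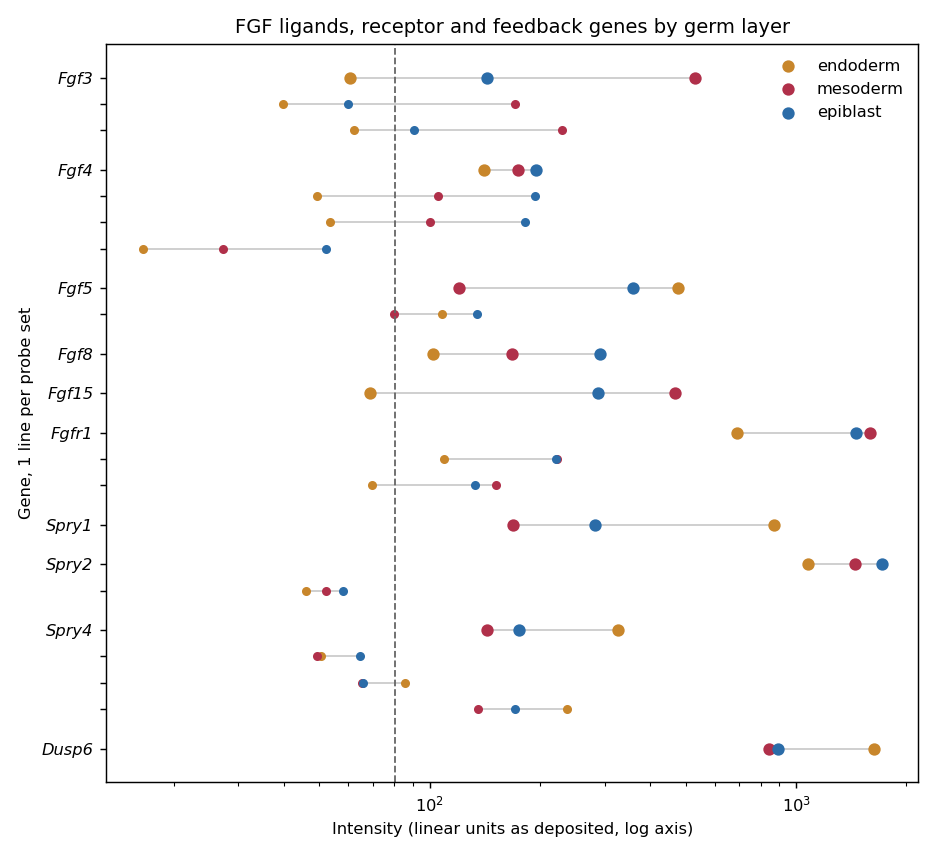
Intensity of each of the 22 probe sets of the 10 genes on the 3 arrays, on a log axis, with 1 horizontal line per probe set and larger points for the probe set that stood for the gene. The dashed line is the floor at 80.6. Points for endoderm lie at the left end of the lines of Fgf3, Fgf4, Fgf8, Fgf15 and Fgfr1, and at the right end of the larger points of Fgf5, Spry1, Spry4 and Dusp6.

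All 10 genes were above the floor in at least 1 layer, and 7 of them passed the 2-fold limit for 1 or more pairs of layers, as did 21.5% of all genes above the floor. The 7 were Fgf3, Fgf5, Fgf8, Fgf15, Fgfr1, Spry1 and Spry4, and Fgf4, Spry2 and Dusp6 stayed within 2-fold. Against epiblast, endoderm was higher for 1 of the 10 genes, Spry1, beside a background of 12.5% of genes above the floor. It was lower for 4, Fgf3, Fgf8, Fgf15 and Fgfr1, beside a background of 4.01%. Against mesoderm, endoderm was higher for 3, Fgf5, Spry1 and Spry4 (background 11.4%), and lower for 3, Fgf3, Fgf15 and Fgfr1 (background 3.86%). Mesoderm against epiblast gave fewer differences, with Fgf3 higher (1 of 10, background 3.44%) and Fgf5 lower (1 of 10, background 3.25%). The median log2 difference of the 10 genes was -0.57 between endoderm and epiblast, -0.20 between mesoderm and epiblast and -0.37 between endoderm and mesoderm, where all genes above the floor gave 0.05, -0.02 and 0.07. The epiblast was the lowest layer for 0 of the 10 genes, and for 33.3% of genes above the floor. The endoderm was the lowest for 6, Fgf3, Fgf4, Fgf8, Fgf15, Fgfr1 and Spry2, and the mesoderm for the other 4, Fgf5, Spry1, Spry4 and Dusp6, for Dusp6 by less than the spread between probe sets. The comparisons share arrays, and the genes were chosen with results of these arrays known, so these counts are descriptions.

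**Figure D2:**
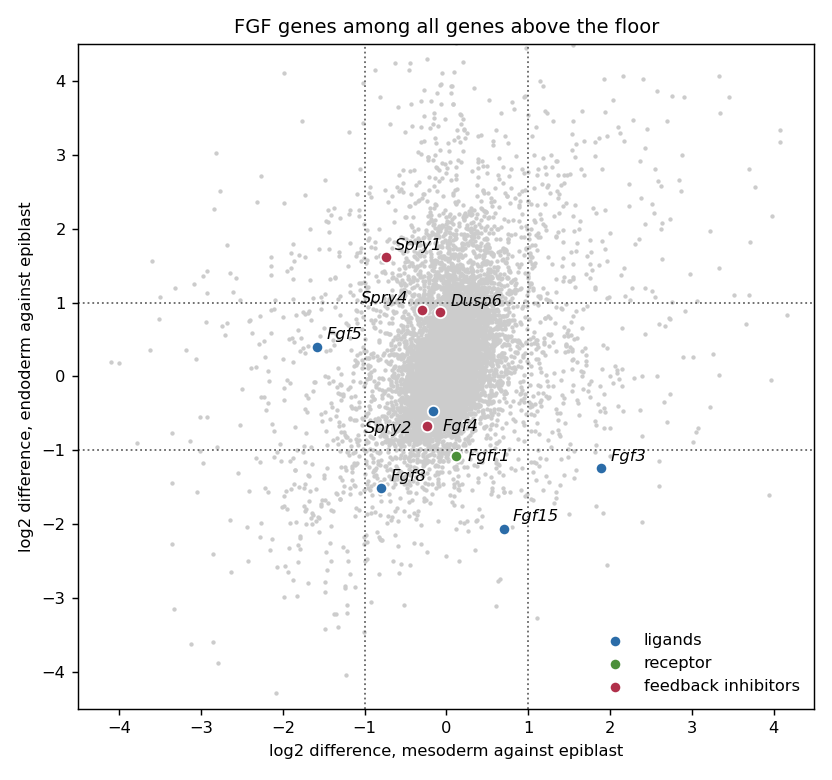
Log2 difference of mesoderm against epiblast (x axis) and of endoderm against epiblast (y axis) for the 12785 genes above the floor in grey, with the 10 FGF genes in colour by role, and dotted lines at 2-fold. Fgf15, Fgf8, Fgf3 and Fgfr1 lie below the lower dotted line, Spry1 lies above the upper one, and 67 grey genes fall outside the axes.

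Among the ligands, Fgf3 had the widest range. Fgf3 is a secreted FGF known for its part in tail and inner ear development. Its brightest probe set read 60.5 in endoderm, 530 in mesoderm and 143 in epiblast, so that the mesoderm stood apart and the endoderm was under the floor. Fgf3 was 3.71-fold higher in mesoderm than in epiblast (log2 1.89) and exceeded its endoderm value by at least 6.57-fold. Its other probe sets read 39.8, 171 and 59.8, and 62.0, 229 and 90.4, in the same order of layers. All 3 thus put mesoderm first, though on the second probe set endoderm and epiblast were both under the floor, with a log2 difference of mesoderm over epiblast from 1.34 to 1.89. The call of endoderm below epiblast was less firm. The log2 difference was -1.24, but as the endoderm value was below the floor the fold is at least 1.77, and it was -0.79 over the mean of the probe sets. Of 5 haemato-endothelial markers, Tal1, Etv2 and Lmo2 were also highest in mesoderm, and Runx1, at 282, 310 and 345 in endoderm, mesoderm and epiblast, was not. The 5 summed to 600, 2617 and 887 in the same order, with 3, 4 and 3 above the floor and the globin gene Hbb-bh1 under it in all layers, and their part in the values of Fgf3 was not tested.

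Fgf15, the mouse counterpart of human FGF19, is the only member here of the endocrine FGF subfamily. Its single probe set read 68.9 in endoderm, 467 in mesoderm and 287 in epiblast. The endoderm value was under the floor, and both other layers were well above it. Fgf15 was at least 5.79-fold higher in mesoderm and at least 3.56-fold higher in epiblast than in endoderm. Mesoderm was 1.63-fold above epiblast (log2 0.70), short of 2-fold but more than the 0.27 by which probe sets varied.

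Fgf8, a ligand of the primitive streak, read 101.8 in endoderm, 167 in mesoderm and 291 in epiblast on its single probe set. The epiblast, which included the streak, was thus the highest layer. Fgf8 was 2.86-fold higher in epiblast than in endoderm (log2 difference of endoderm against epiblast -1.52) and 1.74-fold higher than in mesoderm. Mesoderm was 1.64-fold above endoderm, and each step was larger than the spread between probe sets. Of the other streak markers, Mixl1 read 77.8, 234 and 554 in endoderm, mesoderm and epiblast and Evx1 read 319, 455 and 572, in the same order of layers as Fgf8. Wnt3 did not reach the floor on any array, and the 3 genes summed to 416, 707 and 1150, with 1, 2 and 2 above the floor. T, the other marker of the list, was not analysed here. Markers of extra-embryonic ectoderm and trophoblast summed to 1632, 1301 and 2251 over 4 genes, with 3 above the floor in each layer. Cdx2, at 1283, 932 and 1817, made up most of this, so the sums describe mainly that gene and not the amount of such tissue. Elf5, specific to extra-embryonic ectoderm and trophoblast, was under the floor throughout. The part of neither list in the values of Fgf8 was tested.

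Fgf4, a ligand of early embryo and streak, gave different sizes on different probe sets. The brightest read 141 in endoderm, 175 in mesoderm and 195 in epiblast. These lay within 1.39-fold, and the differences of mesoderm from both other layers did not exceed the spread between probe sets. A second probe set read 49.2, 105 and 194, and another 53.3, 100.4 and 182, so that the endoderm was under the floor and the epiblast at least 2.41-fold and 2.26-fold above it. The fourth, at 16.5, 27.3 and 52.1, was under the floor in all layers. The 3 above the floor gave the same order, epiblast over mesoderm over endoderm, and the log2 difference of endoderm against epiblast ran from -1.98 to -0.47. Fgf4 was therefore not called on its brightest probe set and would be on either of the next 2.

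Fgf5, long used as a marker of the epiblast after implantation, was the ligand that was lowest in mesoderm. Its brightest probe set read 476 in endoderm, 120.5 in mesoderm and 360 in epiblast. Endoderm and epiblast were close, at 1.32-fold apart, and both stood above mesoderm. Fgf5 was 2.99-fold lower in mesoderm than in epiblast (log2 -1.58) and 3.95-fold lower than in endoderm. The second probe set, at 108, 79.7 and 135, kept mesoderm lowest but put epiblast above endoderm. Its log2 difference was -0.32 for endoderm against epiblast, where the first gave 0.40. Its mesoderm value was just under the floor, so that endoderm was at least 1.34-fold above mesoderm on this probe set. Which of endoderm and epiblast had more Fgf5 RNA thus depends on the probe set.

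Fgf3, Fgf4 and Fgf15 are neighbours on chromosome 7, with 0 protein-coding genes between Fgf3 and Fgf4 and 0 between Fgf4 and Fgf15 in RefSeq on assembly GRCm38.p6. Endoderm was the lowest layer for all of them. Mesoderm was the highest for Fgf3 and Fgf15, and epiblast for Fgf4. For Fgf4 the log2 difference of mesoderm against epiblast was -0.16 on the brightest probe set, within the spread between probe sets, and -0.88 and -0.86 on the next 2. The 250 bases before the annotated start, from RefSeq on the same assembly, are shown for Fgf3 (chr7:144838362-144838611, + strand) and Fgf4 (chr7:144861136-144861385, + strand), because the genes adjoin and their highest layers differ. Capitals mark GGAA on either strand (TTCC as printed where it is on the other one), the core bound by ETS factors, through which FGF signals reach DNA.
Fgf3: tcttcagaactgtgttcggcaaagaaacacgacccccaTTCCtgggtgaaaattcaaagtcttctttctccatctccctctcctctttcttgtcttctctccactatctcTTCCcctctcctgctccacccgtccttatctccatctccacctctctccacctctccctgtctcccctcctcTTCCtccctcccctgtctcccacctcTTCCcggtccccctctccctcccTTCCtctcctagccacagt
Fgf4: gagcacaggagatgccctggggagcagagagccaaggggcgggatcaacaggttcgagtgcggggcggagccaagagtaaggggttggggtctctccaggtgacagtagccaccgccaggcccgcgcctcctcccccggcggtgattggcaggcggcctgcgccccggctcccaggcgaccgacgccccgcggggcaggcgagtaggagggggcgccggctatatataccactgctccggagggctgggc
The window of Fgf3 held 5 matches and that of Fgf4 held 0. Fgf4 instead had 2 copies of the GC box GGGCGG and a GC content of 71.2%, against 55.2% and 0 copies for Fgf3. Of 32851 windows of this length in the table, 93.4% held GGAA (median 3 matches, quartiles 2 and 4) and 32.7% held GGGCGG, on either strand. A match of 4 letters is a description of the sequence and not a site, and none in a window says nothing of the factor.

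Fgfr1, a receptor tyrosine kinase for several FGFs, was lower in endoderm on every probe set. The brightest read 690 in endoderm, 1587 in mesoderm and 1457 in epiblast. The name of this probe set marks probes that can match more than 1 transcript. The others read 109, 222 and 221, and 69.7, 152 and 133. The endoderm was lowest on all 3, and mesoderm and epiblast were nearly level, with 1.09-fold between them on the brightest, which is less than the spread between probe sets. Fgfr1 was 2.11-fold lower in endoderm than in epiblast and 2.30-fold lower than in mesoderm. The log2 difference of endoderm against epiblast ran from -1.08 to -0.94 and that of endoderm against mesoderm from -1.20 to -1.02. The dimmest probe set had its endoderm value under the floor, so its difference from epiblast (-0.94) is only a bound of at least 1.65-fold. Centring on 8 housekeeping genes, which shifted all log2 differences of endoderm against epiblast by 0.16, put the brightest at -0.92, short of the limit. Those genes themselves ran from -0.63 (Hprt) to 0.82 (B2m) for this pair. Quantile normalization and cyclic loess moved the brightest probe set the other way, to -1.35 and -1.22.

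**Figure D3:**
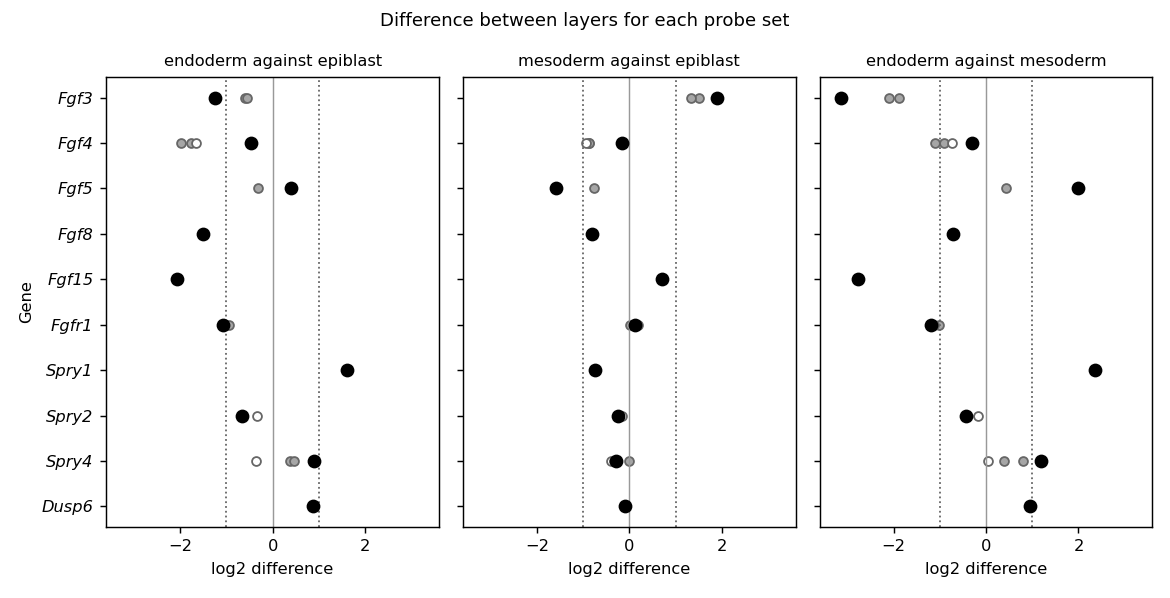
Log2 difference between layers for each probe set of the 10 genes, in a panel per pair of layers, with black for the probe set that stood for the gene, grey for others above the floor and white for those under it. Dotted lines mark 2-fold. The probe sets of Fgfr1 fall together, and those of Fgf4, from -1.98 to -0.47 for endoderm against epiblast, are spread out.

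The feedback inhibitors went different ways. Spry1, a Sprouty protein, read 868 in endoderm, 169 in mesoderm and 283 in epiblast on its single probe set, with endoderm standing apart. It was 3.07-fold higher in endoderm than in epiblast (log2 1.62) and 5.14-fold higher than in mesoderm (log2 2.36). Mesoderm was in turn 1.67-fold below epiblast.

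Spry4, another Sprouty protein, also had its highest value in endoderm, with 327 there, 143 in mesoderm and 176 in epiblast. It was 2.28-fold higher in endoderm than in mesoderm (log2 1.19) and 1.86-fold higher than in epiblast. A second probe set read 237, 135 and 171 and another 85.6, 65.2 and 65.7, and the fourth, at 50.5, 49.1 and 64.7, was under the floor. The first 3 all put endoderm first. On the second the log2 difference of endoderm over mesoderm was 0.81, and on the next mesoderm and epiblast were both under the floor, so that endoderm was at least 1.06-fold above either. Over the mean of the probe sets the log2 difference from mesoderm was 0.61, which is not called, and with centring on housekeeping genes the difference from epiblast was 1.05, which is. Quantile normalization put the difference from epiblast at 0.71 and cyclic loess at 0.86, neither of which is called.

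Dusp6, the Erk phosphatase, read 1636 in endoderm, 843 in mesoderm and 893 in epiblast on its single probe set. Endoderm was the highest here too, at 1.83-fold over epiblast and 1.94-fold over mesoderm, just short of the limit. Mesoderm and epiblast were 1.06-fold apart, less than the spread between probe sets. With the arrays centred on housekeeping genes it passed the limit over both, at log2 1.03 and 1.12. Other normalizations moved it away from the limit, to 0.57 and 0.71 (quantile) and 0.73 and 0.84 (cyclic loess).

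Spry2, the third Sprouty protein, was the exception. It read 1079 in endoderm, 1448 in mesoderm and 1711 in epiblast, so that endoderm was the lowest layer and epiblast the highest. The steps were 1.59-fold between epiblast and endoderm, 1.34-fold between mesoderm and endoderm, and 1.18-fold between epiblast and mesoderm, the last of which did not exceed the spread between probe sets. Its second probe set, at 45.9, 52.1 and 58.0, was under the floor.

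Endoderm was thus the highest layer for Spry1, Spry4 and Dusp6 and the lowest for Spry2. Of the ligands and the receptor it was the highest for Fgf5 alone, on the brightest probe set and not on the second. Over all genes above the floor, endoderm was the highest layer for 47.0% and the lowest for 35.5%, mesoderm for 20.5% and 31.2%, and epiblast for 32.5% and 33.3%. The windows of Spry1 (chr3:37639697-37639946, + strand) and Dusp6 (chr10:99262981-99263230, + strand), both highest in endoderm, are shown to set these feedback genes side by side, marked as above.
Spry1: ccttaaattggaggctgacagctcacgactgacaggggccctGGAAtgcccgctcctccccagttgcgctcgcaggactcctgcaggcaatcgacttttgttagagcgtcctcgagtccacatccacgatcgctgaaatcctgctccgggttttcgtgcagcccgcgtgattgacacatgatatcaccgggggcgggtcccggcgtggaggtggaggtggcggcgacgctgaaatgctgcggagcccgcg
Dusp6: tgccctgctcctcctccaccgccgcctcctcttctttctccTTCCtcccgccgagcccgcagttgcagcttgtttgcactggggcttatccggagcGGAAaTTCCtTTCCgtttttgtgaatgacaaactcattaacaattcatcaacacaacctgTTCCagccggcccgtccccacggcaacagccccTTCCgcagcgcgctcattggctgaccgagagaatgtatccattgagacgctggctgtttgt
Dusp6 held 6 matches to GGAA and Spry1 held 1, while Spry2, which was lowest in endoderm, held 3 in its window and Fgf5 held 2. The longer form CCGGAA was in the window of Fgf5 (1 match), was in 12.0% of all windows, and was in none of the windows of Fgf3, Fgf4, Spry1, Spry2 and Dusp6. The GC box GGGCGG had 1 match each in Spry1 and Fgf5 and 0 in Spry2 and Dusp6. Promoter sequences matched 6 of the 10 genes, and Fgf8, Fgf15, Fgfr1 and Spry4 were not among them.

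The genes whose pattern across the 3 arrays was most like that of a member were sought for the 3 members with a log2 range of at least 2, by the distance between log2 values centred on their mean. For Fgf3 they were Vegfc (distance 0.020), Ncam1 (0.12) and Mn1 (0.21), and 21 genes lay within 0.5. For Fgf15 they were Cd44 (0.080), Mgarp (0.23) and Tbx6 (0.26), with 32 genes within 0.5. Spry1 had more such genes, 208, with Cystm1 (0.0086), Iqgap2 (0.051) and Cldn8 (0.054) first. Vegfc in endoderm and epiblast, Mgarp in endoderm, and Cldn8 in mesoderm and epiblast were under the floor. With 3 points a pattern is only an order and 2 steps, and many genes can share it.

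Around these 10 genes, 7 lists of other genes of the pathway held 76 named genes, of which 64 were above the floor. Endoderm was higher than epiblast for 11 of the 64 (background 12.5%) and lower for 6 (4.01%). Mesoderm was higher than epiblast for 8 (3.44%) and lower for 4 (3.25%), and endoderm was higher than mesoderm for 10 (11.4%) and lower for 6 (3.86%). The 2 counts with endoderm higher were near the background. The 2 counts with endoderm lower came largely from the list of streak and mesoderm targets, some of which mark those cells. That list gave 4 of the 6 genes lower than in epiblast and 3 of the 6 lower than in mesoderm. The median log2 differences were 0.17, 0.08 and 0.09, beside 0.05, -0.02 and 0.07 over all genes above the floor.

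**Figure D4:**
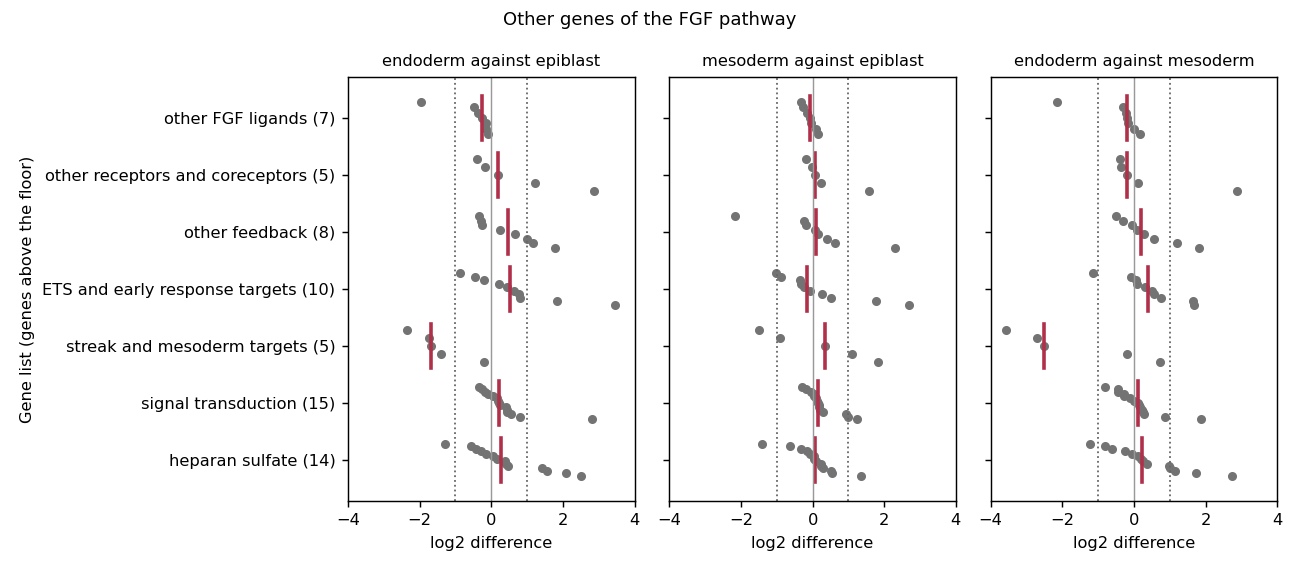
Log2 difference between layers for the 64 other pathway genes above the floor, in a panel per pair of layers, with 1 point per gene, a red bar at the median of each list and dotted lines at 2-fold. The list of streak and mesoderm targets lies to the left where endoderm is compared, with medians of -1.68 against epiblast and -2.50 against mesoderm, beside 0.05 and 0.07 over all genes.

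Few other genes named Fgf reached the floor. Of 17, 7 were above it, and Fgf13 alone passed 2-fold, at 184, 810 and 724 in endoderm, mesoderm and epiblast. Fgf13 belongs, with Fgf11, Fgf12 and Fgf14 of this list, to the FGF homologous factors, which stay inside the cell and are not ligands of FGF receptors. The counts and medians of the list include them. Fgf9, Fgf10, Fgf12, Fgf16, Fgf17 and Fgf23 lay within 2-fold, from 79.5 for Fgf9 in mesoderm to 212 for Fgf10 in mesoderm. The list's medians were -0.27 (endoderm against epiblast), -0.07 (mesoderm against epiblast) and -0.19 (endoderm against mesoderm), in the order kept for all lists.

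None of the other receptors was 2-fold lower in endoderm, as Fgfr1 was. Fgfr2 and Fgfr4 were also lowest in endoderm, by no more than about the spread between probe sets. Fgfr3 read 534 in endoderm, 685 in mesoderm and 230 in epiblast, 2-fold or more above epiblast in both layers (log2 1.21 and 1.57). Klb, the coreceptor for endocrine FGFs such as Fgf15, read 595 in endoderm, 80.5 in mesoderm and 81.3 in epiblast, so that it was at the floor outside endoderm, where its ligand Fgf15 was lowest. Fgfr2 (317, 415 and 355), Fgfr4 (169, 194 and 222) and Fgfrl1 (736, 678 and 643), a receptor without a kinase, were within 2-fold in endoderm, mesoderm and epiblast. Out of 5 receptors and coreceptors that passed the floor, endoderm exceeded epiblast for 2, mesoderm exceeded epiblast for 1 and endoderm exceeded mesoderm for 1, with 0 lower, and the medians were 0.20, 0.08 and -0.20. Over the mean of the probe sets of each gene, the first 2 of these counts were 1 and 0.

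Other inhibitors also differed among themselves. Dusp9, an Erk phosphatase, read 1762, 2517 and 509 in endoderm, mesoderm and epiblast, and Dusp4, a nuclear phosphatase of the same family, 1031, 698 and 456. Both were thus lowest in epiblast, where Dusp6 was level with mesoderm within the spread between probe sets. Il17rd (Sef), a membrane inhibitor of FGF signalling, read 932, 409 and 467, highest in endoderm and, like Dusp6, within the spread between probe sets for mesoderm and epiblast. It was called for endoderm against mesoderm (log2 1.19) and just short of the limit against epiblast. Spred3, a relative of the Sprouty proteins, read 104, 29.4 and 133. Its mesoderm value was under the floor, and with that value raised to the floor neither of its 2 calls would stand. Of 8 inhibitors above the floor, 2 were higher and 0 lower in endoderm against epiblast, 1 higher and 1 lower in mesoderm against epiblast, and 2 higher and 0 lower in endoderm against mesoderm, with medians of 0.46, 0.10 and 0.18.

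Among 10 ETS and early response targets, Etv5, an ETS factor induced by FGF, read 1441 in endoderm, 462 in mesoderm and 848 in epiblast. This order, with mesoderm lowest, was that of Spry1 and Spry4. Phlda1 (1604, 950 and 146) and Myc (747, 705 and 208) were instead lowest in epiblast. Egr1 (145, 45.9 and 93.5) was dim, with its mesoderm value under the floor. With that value raised to the floor neither of its 2 calls would stand. Endoderm was higher than epiblast for 2 and lower for 0 (median 0.53), mesoderm was higher than epiblast for 2 and lower for 1 (median -0.16), and endoderm was higher than mesoderm for 2 and lower for 1 (median 0.40).

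Streak and mesoderm genes, some of them known to depend on FGF signalling, were mostly low in endoderm. Mesp1, a factor of nascent mesoderm, read 172, 2057 and 579 in endoderm, mesoderm and epiblast, and Tbx6, of paraxial mesoderm, 111, 721 and 564. Snai1, a repressor of E-cadherin, read 51.0, 289 and 135, and Wnt3a, a streak ligand, 94.4, 108 and 302. All 4 were lower in endoderm than in epiblast, and the first 3 were also lower than in mesoderm, as Fgf3 and Fgf15 were. The endoderm value of Snai1 was under the floor, so its difference from epiblast is at least 1.67-fold. Eomes, the other gene of the list above the floor, read 773, 470 and 886, lowest in mesoderm and within 2-fold for each pair. Of 5 genes above the floor, endoderm was higher than epiblast for 0 and lower for 4, mesoderm was higher than epiblast for 2 and lower for 1 (median 0.36), and endoderm was higher than mesoderm for 0 and lower for 3.

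Genes that carry the signal inside the cell were mostly within 2-fold. Of 15 above the floor, Gab1, an adaptor, was higher in endoderm (1339) than in mesoderm (364) and epiblast (191), and Sos2, a Ras activator, was higher in mesoderm (313) than in epiblast (132). These made 1 higher and 0 lower for each pair, with medians of 0.21, 0.15 and 0.12. Braf, at 995, 1754 and 881, and Frs3, at 128, 70.3 and 87.0, were within 2-fold.

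Heparan sulfate proteoglycans, the coreceptors of paracrine FGFs, and the enzymes that build their chains lay on both sides. Gpc3, a glypican, read 6026 in endoderm, 2714 in mesoderm and 1061 in epiblast. The syndecan Sdc4 read 1905, 285 and 445 and the glypican Gpc4 read 1195, 357 and 446, with mesoderm lowest as for Spry1. Ext2, which polymerises the chain, read 451, 225 and 154. Of 14 genes above the floor, endoderm exceeded epiblast by 2-fold for these 4 and was that far below it for Sdc1, and the same split of 4 and 1 held against mesoderm. Mesoderm was higher than epiblast for 1, Gpc3, and lower for 1, Hs6st1. The medians were 0.27, 0.07 and 0.23.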

How the data were processed

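The authors deposited 1 intensity per probe set and array, in linear units, for 45037 probe sets on 3 arrays. According to the methods and the labels, the manufacturer's console software read the arrays, background and normalization were done by the Robust Multiarray Average (RMA), and affy computed expression values. RMA usually gives log2 values and levels the arrays, whereas the deposited values were linear, with upper quartiles of 319, 276 and 269. The sources used here do not state which step led to this form. Differences between layers, among bright values as well as dim ones, thus rest on an unknown step. Versions and detection calls were not used here. The test named in the methods needs replicates, so none was run.

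Left out were 932 probe sets with several symbols and 9160 without a name in the annotation. Symbols came from the platform annotation and were looked up by Entrez identifier for 34741 probe sets, which altered 0. Intensities were turned into log2 and subtracted between layers. A difference counted from 1 on the log2 scale (2-fold) where the highest value was above the floor. A fold against a value below the floor is given as at least the fold over the floor. The members and lists were chosen with earlier results of these data known. Named genes are the members, the 4 genes of widest range in each list, every FGF receptor and ligand above the floor, markers where a result turns on them, and the 3 genes of closest pattern. Evx1, Mixl1 and Wnt3 were named for comparison with members, Etv4 for comparison with Etv5, and Eomes as the remaining gene of its list. The 7 pathway lists had 86 entries, and those beyond the 76 named on the array are not analysed here. Alternatives were other choices of probe set, floor, scale, normalization (quantile and cyclic loess in limma 3.58.1, R 4.3.3), centring and fold limit. Python 3.11.15, pandas 2.3.3 and numpy 2.4.6 were used, and the counting was tested on simulated data.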

Additional observations from a re-analysis of the deposited data

How the results depend on the processing

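Under the alternatives run, no called difference of the 10 genes turned sign, and 312 of 324 values kept their call. Part of the 324 could not change, so this tally overstates how firm the calls are. A higher floor or none leaves the log2 values as they are, and choosing by mean intensity picked the same probe sets. Genes with a single probe set are also fixed under other choices of probe set. Without probe sets that can match several transcripts, 3 genes and not 5 were called for endoderm against epiblast. Fgf8 has no other probe set. The one left for Fgfr1 (-0.94) had its endoderm value under the floor, which allows only at least 1.65-fold. Over all genes this setting called 1848 of 11101 for that pair, against 2111 of 12785 in the main setting. A 3-fold limit left 2 genes between endoderm and epiblast, 1 between mesoderm and epiblast and 4 between endoderm and mesoderm. Otherwise the counts ran from 4 to 6 for endoderm against epiblast and from 5 to 7 for endoderm against mesoderm, and stayed at 2 for mesoderm against epiblast. Over all genes the calls ran from 1588 to 2424, from 1441 to 2200 and from 587 to 980 in that order. Between 7947 and 18193 genes were tested in these settings. Centring on housekeeping genes turned the split for endoderm against epiblast from 1 higher and 4 lower into 3 and 3, with Spry4 at 1.05, Dusp6 at 1.03 and Fgfr1 at -0.92, and put Dusp6 at 1.12 against mesoderm. Quantile normalization and cyclic loess left that split at 1 and 4, and moved these differences the other way. Over all genes, calls for this pair numbered 2350 of 12823 with centring, 1897 of 12758 (quantile) and 2015 of 12770 (cyclic loess). Fgf3 for endoderm against epiblast fell short at -0.79 over the mean of its probe sets, -0.83 with dim values raised to the floor and -0.92 on log2 of intensity plus 32. Fgf4 passed at -1.47 over the mean, and by the probe set of largest range, an alternative chosen after seeing the data, at -1.98 against epiblast and -1.10 against mesoderm. Of the counts in the other lists, 418 of 462 were within 1.5 times. Many of these counts were 0 or 1, and a count that stayed at 0 was taken as within. This tally too thus overstates how firm the counts are. No paired analysis was possible because each layer had 1 array. With 1 array per layer, precision is limited by the number of arrays, and values under the floor have no order.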
